A study of Mus musculus with 9 samples.

Results

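DNA replication genes are the 54 genes listed here whose products mark origins, unwind and copy DNA at the fork, supply deoxynucleotides and start S phase. They were chosen by name and by known role, not by their values, though earlier results of these data were known. All 54 are among the 15253 genes tested of 55228 in the count table. HC11 is a mouse mammary epithelial line, and the cells were grown undifferentiated with insulin and epidermal growth factor until nearly confluent. The 3 groups were the parental cells (*WT*) and 2 *Vangl2* lines (*KD1* and *KD2*), with 3 cultures each. The labels call both lines *Vangl2* knockouts, and each was grown from 1 colony after nucleofection with Cas9, its own guide and a repair template that carries stop codons. *Vangl2* encodes a transmembrane protein of planar cell polarity. No line cloned without an edit was analysed here, so the edit, the guide and the history of the clone cannot be told apart. The labels number 3 samples per line without saying that they were separate cultures, so the p-values measure the spread between these samples, which may be technical.

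Total counts were 19231428 to 28360592 per culture, and every member had at least 335 counts in every culture, the fewest in *Fen1*. Levels are given as CPM, counts scaled to library size and TMM factor, and these factors ran from 0.959 to 1.06. *Vangl2* itself had 3.38, 3.96 and 4.20 CPM in *WT*, 2.77, 1.89 and 2.78 in *KD1* and 3.64, 3.93 and 4.43 in *KD2*. All 3 *KD1* cultures lay below all *WT* cultures, whereas *KD2* overlapped *WT*. Its log2 fold changes were -0.63 in *KD1* (SE 0.171, adjusted p = 0.0058) and 0.047 in *KD2* (SE 0.162, adjusted p = 0.81). A small edit can leave the mRNA in place, so this level does not check the label of *KD2*. The authors call both lines knockdowns. By Western blot they saw almost no VANGL2 protein in *KD1* and a strong reduction, with some protein left, in *KD2*. Of the epithelial markers, *Krt5*, *Krt14*, *Krt8*, *Krt18*, *Epcam* and *Cdh1* summed to 4818 to 5389 CPM in *WT*, 5464 to 5607 in *KD1* and 2873 to 3564 in *KD2*. *KD2* culture 3 stood apart from the other two *KD2* cultures, with a chi-square value per degree of freedom of 17.4 and 22.1 against them, whereas they differed from each other by 1.74. *WT* culture 1 also stood apart, at 13.1 and 10.7 against the other two *WT* cultures, which differed by 3.38. The counts of members are therefore also given without *KD2* culture 3 or *WT* culture 1.

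Replication begins in G1, when the origin recognition complex (ORC), Cdc6 and Cdt1 load pairs of MCM2-7 helicases onto origins, a step called licensing. At the start of S phase, cyclin E with its kinase and the Cdc7-Dbf4 kinase turn the loaded helicases on by recruiting Cdc45 and GINS, and polymerases, sliding clamp and ligase then copy both strands. E2F transcription factors switch on many of these genes together at the G1/S border, which is why their mRNA levels are widely used as a sign of how many cells of a culture are cycling. In RNA from whole cultures, fewer cells in S phase and less mRNA per cell cannot be told apart.

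Promoter windows from RefSeq (build GRCm38.p6, 250 bases before to 50 after each start) were found for 45 of the 54 genes, 54 windows in all. They were searched on both strands for the E2F-type letters TTTGGCGC, TTTCCCGC, TTTCGCGC and TTTGCCGC, of which the first and the third can overlap on opposite strands. At least 1 of them was in 16 of the 54 windows (29.6%), against 744 of 32851 windows of all genes in the table (2.26%). CCAAT was in 27 of the members' windows and in 37.4% of all windows, and TTTGAA, the letters of the cell cycle homology region, in 14.8% and 17.9%. The stretches below belong to genes with such letters, picked for the results named with each gene. E2F-type letters are in capitals, and the stretches are written 5′ to 3′ on the strand of the gene, with the start at position 0. *Orc1* (chr4:108579416-108579445, plus strand, positions -38 to -9) and *Cdc6* (chr11:98907991-98908150, plus strand, positions -160 to -1) had the largest log2 fold changes in *KD1*, *Mcm6* (chr1:128359706-128359865, minus strand, positions -160 to -1) and *Mcm5* (chr8:75109349-75109508, plus strand, positions -160 to -1) are subunits of 1 ring that moved in opposite directions, *Rfc3* (chr5:151651200-151651229, minus strand, positions -21 to 8) rose in *KD1* alone of the comparisons with *WT*, and *Pola1* (chrX:93632156-93632315, minus strand, positions -160 to -1) had the lowest log2 fold change in *KD2*. The stretches of *Mcm6*, *Mcm5* and *Pola1* lie before the annotated gene. Those of *Cdc6* and *Rfc3* lie inside it, and that of *Orc1* spans its start. The annotated gene starts at 98907801 for *Cdc6*, at 151651242 for *Rfc3* and at 108579423 for *Orc1*.
Orc1: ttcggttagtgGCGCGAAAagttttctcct
Cdc6: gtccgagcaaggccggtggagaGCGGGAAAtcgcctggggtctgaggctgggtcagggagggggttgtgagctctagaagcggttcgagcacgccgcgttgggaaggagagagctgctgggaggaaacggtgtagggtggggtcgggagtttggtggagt
Mcm6: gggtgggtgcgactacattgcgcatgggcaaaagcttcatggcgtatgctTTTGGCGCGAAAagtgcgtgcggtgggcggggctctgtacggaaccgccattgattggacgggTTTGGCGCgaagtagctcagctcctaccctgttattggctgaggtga
Mcm5: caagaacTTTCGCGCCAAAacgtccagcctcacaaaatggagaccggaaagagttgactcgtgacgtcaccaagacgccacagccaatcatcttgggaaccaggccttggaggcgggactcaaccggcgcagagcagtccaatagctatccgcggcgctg
Rfc3: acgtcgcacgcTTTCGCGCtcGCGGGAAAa
Pola1: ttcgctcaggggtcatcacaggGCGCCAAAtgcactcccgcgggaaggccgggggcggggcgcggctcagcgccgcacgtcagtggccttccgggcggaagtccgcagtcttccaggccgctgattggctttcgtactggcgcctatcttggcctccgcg

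The genes with such letters moved in both directions. Against *WT*, *KD1* had 9 of the 16 higher, 4 lower and 3 that did not pass the test, and *KD2* had 5, 7 and 4. As printed with the counts of all members, 26.9% of all tested genes were higher and 30% lower in *KD1*, and 34% and 33.3% in *KD2*. Without *KD2* replicate 3 the counts for *KD2* were again 5 and 7, beside 37.2% and 34% of all tested genes. Without *WT* replicate 1 they were 9 and 1 in *KD1*, beside 24.9% and 27.5%, and 3 and 7 in *KD2*, beside 32.4% and 31.7%. The match is a description of the letters in these windows and says nothing about binding.

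The 2 lines moved this group of genes in different directions. In *KD1*, 27 of the 54 genes exceeded *WT* and 9 were lower (quasi-likelihood test in edgeR, Benjamini-Hochberg adjusted p under 0.05), beside 26.9% of all tested genes higher and 30% lower. In *KD2*, 11 were higher and 28 lower, beside 34% and 33.3%. The 27 and 9 genes of *KD1* are 50% and 16.7% of the members, and the 11 and 28 of *KD2* are 20.4% and 51.9%. The members had a median log2 fold change of 0.16 in *KD1*, where that of all tested genes was -0.031, and -0.17 in *KD2*, where it was 0.0091. Most of these changes were small. Beyond 2-fold, *Orc1* and *Cdc6* were higher in *KD1* and none was lower, beside 9.34% and 7.49% of all genes, and *Gmnn* and *Pola1* were lower in *KD2* and none was higher, beside 6.71% and 14.5%.

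The number of lower genes in *KD1* depended on the processing. It was 5 with median-of-ratios size factors, 4 with DESeq2 and 3 where every culture had to reach 10 counts, and the higher genes then numbered 27, 28 and 30. Without 1 culture it was 5 without *WT* replicate 1 or 2, 3 without *WT* replicate 3, 3 without *KD1* replicate 1 or 3 and 6 without *KD1* replicate 2. In *KD2*, scaling by library size alone moved the median of all genes from 0.0091 to 0.12, and it gave 14 higher and 20 lower members with a median of -0.064. Without *WT* replicate 1, 8 members were higher and 29 lower in *KD2*, beside 32.4% and 31.7% of all tested genes. Without *KD2* replicate 3, 11 were higher and 30 lower in *KD2*, beside 37.2% and 34%. In *KD1* the members then numbered 31 and 11, beside 31.7% and 32.9% of all tested genes, up from 26.9% and 30% with all cultures. In *KD2*, *Pola1* was then at -0.99 and *Gmnn* at -1.07. *Gmnn* was inside 2-fold without *WT* replicate 2 or 3 (-0.98 and -0.94) or *KD2* replicate 1 or 2 (-0.97 and -0.995), whereas *Orc1* and *Cdc6* stayed beyond it in *KD1* under every alternative run.

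The same split was seen culture by culture. Summed over the 54 genes, the level was 6349, 6659 and 6780 CPM in the *WT* cultures, 7313, 7481 and 7330 CPM in *KD1* and 5783, 5794 and 5938 CPM in *KD2*. On this TMM scale the 3 groups did not overlap, with *KD1* highest and *KD2* lowest. The TMM factors were 0.976 to 0.981 in *WT* and 1.049 to 1.061 in *KD2*, so the gap between these 2 groups depends on the scaling. With library size alone the members' median in *KD2* was -0.064, where that of all genes was 0.12. The median log2 ratio of the members to their *WT* mean was 0.17, 0.18 and 0.16 in the *KD1* cultures and -0.16, -0.21 and -0.12 in the *KD2* cultures. *WT* culture 1 was the lowest of its line at -0.065, and it lay above the *WT* mean in 8 of the 54 genes, whereas *WT* culture 3 did so in 51. All 3 *KD1* cultures lay above all 3 *WT* cultures for 31 members and below them for 13, as did 32.4% and 36.4% of all genes. For *KD2* these counts were 11 and 26, beside 34.6% and 33.4%, and without *KD2* culture 3 they were 12 and 32, beside 40.1% and 39.1%.

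**Figure D1:**
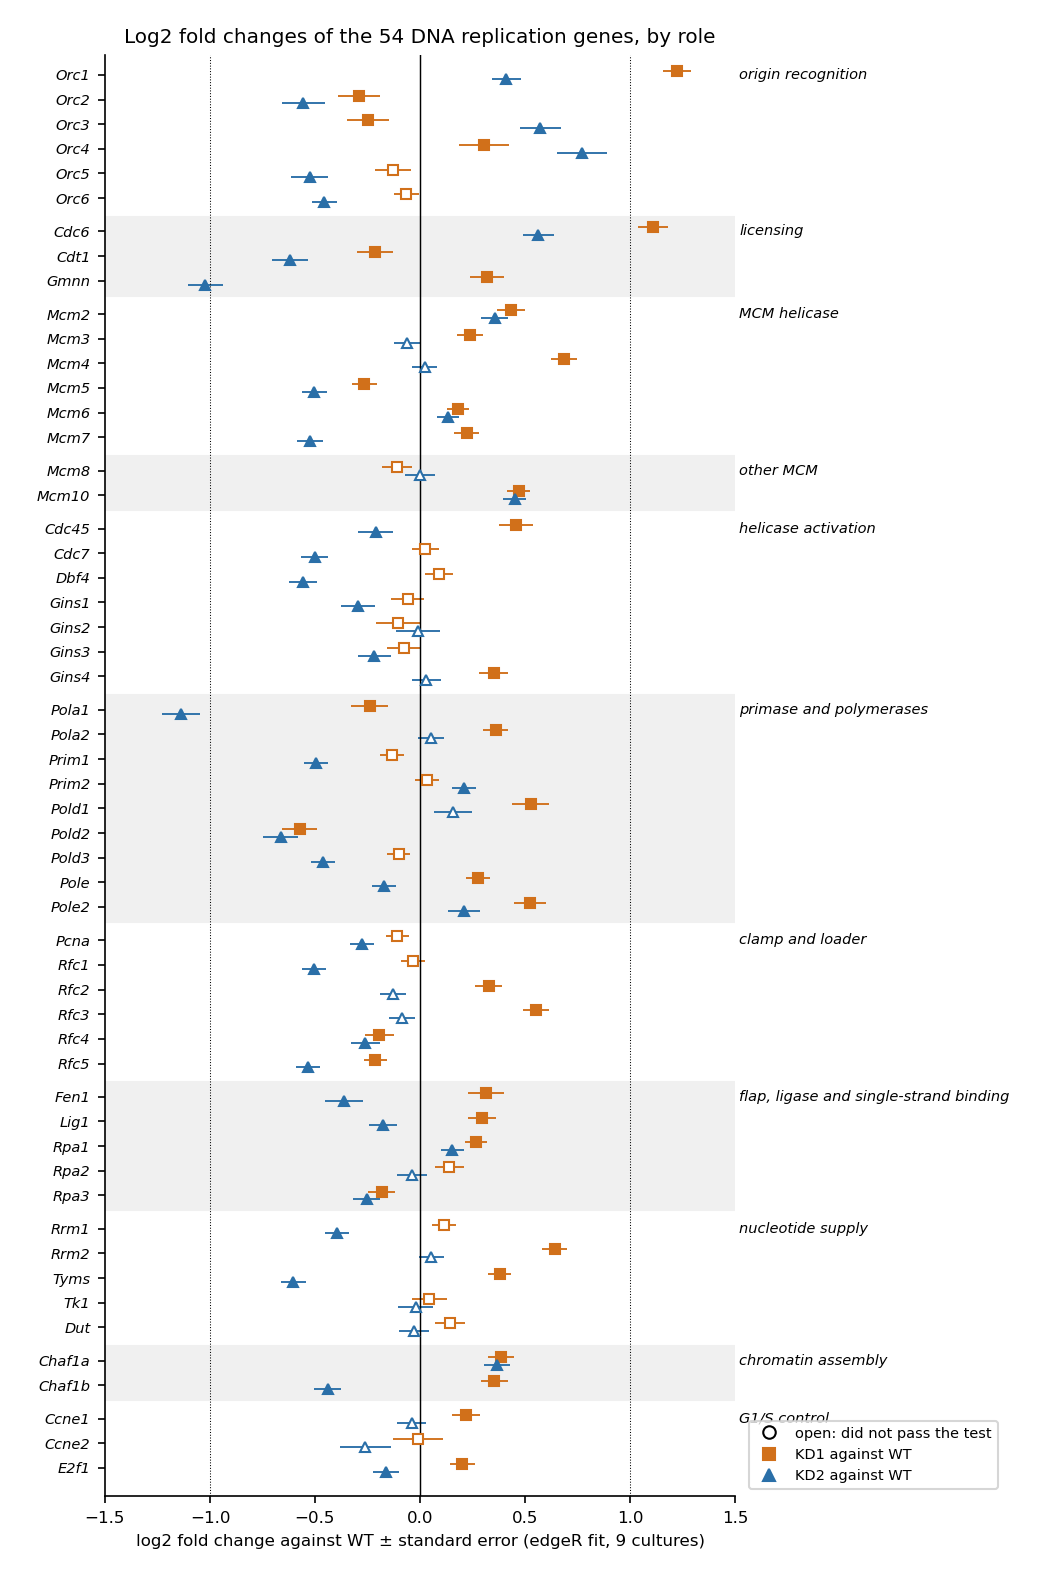
Log2 fold change against *WT* of each of the 54 genes, grouped by role, for *KD1* (squares) and *KD2* (triangles), with standard errors as bars. Filled symbols passed the test at an adjusted p under 0.05, and dotted lines mark 2-fold. *Orc1* and *Cdc6* lie beyond 2-fold to the right in *KD1*, and *Gmnn* and *Pola1* beyond 2-fold to the left in *KD2*.

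Read together with the sign of each call, 9 genes were higher in both lines (*Mcm2*, *Mcm6*, *Mcm10*, *Cdc6*, *Orc1*, *Orc4*, *Pole2*, *Rpa1* and *Chaf1a*) and 8 were lower in both (*Mcm5*, *Cdt1*, *Orc2*, *Pola1*, *Pold2*, *Rfc4*, *Rfc5* and *Rpa3*). Another 9 were above *WT* in *KD1* but below it in *KD2* (*Mcm7*, *Gmnn*, *Cdc45*, *Pole*, *Fen1*, *Lig1*, *Tyms*, *Chaf1b* and *E2f1*), and *Orc3* did the reverse. Both comparisons share the *WT* cultures, so these are each line's own calls set side by side and no count of agreement between independent tests. Of all tested genes, 13.4% were higher in both, 16% lower in both, 5.86% above *WT* in *KD1* but below it in *KD2*, and 6.63% the reverse, beside 16.7%, 14.8%, 16.7% and 1.85% of the members. The members numbered 9, 10, 12 and 1 without *KD2* replicate 3, and without *WT* replicate 1 they numbered 6, 4, 10 and 0. Many of these pairs of calls depended on the processing. Under every alternative run, 5 genes were higher in both (*Mcm2*, *Mcm10*, *Cdc6*, *Orc1* and *Chaf1a*), 3 were lower in both (*Mcm5*, *Pold2* and *Rfc5*) and 5 exceeded *WT* in *KD1* but were below it in *KD2* (*Mcm7*, *Gmnn*, *Fen1*, *Tyms* and *Chaf1b*).

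Counts by role for *KD2* were the same without its culture 3, except that 5 in place of 4 genes of the clamp and its loader and 3 in place of 2 of nucleotide supply were lower. The same step moved *KD1* to 4 higher genes of nucleotide supply in place of 2, 3 higher helicase activators in place of 2, 4 higher flap, ligase and binding genes in place of 3, and 3 lower in place of 2 both in the origin recognition complex and among the polymerases. Without *WT* replicate 1, *KD1* had no lower gene in the origin recognition complex in place of 2 and none in licensing in place of 1, 1 lower in place of 2 among the polymerases and in the clamp group, 1 lower helicase activator in place of none, and 1 higher G1/S control gene in place of 2. *KD2* then had 1 higher gene in place of 2 in the MCM2-7 ring and among the polymerases, no higher gene in place of 1 in the flap group, and 5 lower in the clamp group. Of all tested genes, 37.2% were higher and 34% lower in *KD2* without its culture 3, and 31.7% and 32.9% in *KD1*. Without *WT* replicate 1 these shares were 24.9% and 27.5% in *KD1* and 32.4% and 31.7% in *KD2*.

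The origin recognition complex, the 6-subunit ATPase that marks origins, held the largest change of any member against *WT*. *Orc1* (ENSMUSG00000028587, chromosome 4, 108579423 to 108614833, plus strand), the subunit that comes and goes with the cell cycle and helps to recruit Cdc6, had 21.5, 21.7 and 20.1 CPM in *WT*, 48.7, 51.4 and 47.9 in *KD1* and 28.9, 29.0 and 26.3 in *KD2*. The 3 lines did not overlap, and *KD1* was highest. *Gm12743* on the other strand overlaps 10.8% of the exon bases of *Orc1*. Log2 fold changes of *Orc1* against *WT* were 1.22 in *KD1* (SE 0.0676, adjusted p = 2.2e-09) and 0.41 in *KD2* (SE 0.0693, adjusted p = 0.00013), and *KD2* differed from *KD1* by -0.81 ± 0.0654 (adjusted p = 8e-08). *Orc4* (ENSMUSG00000026761, chromosome 2, 48902824 to 48950277, minus strand), an ATPase fold subunit of the core ring, had 60.8, 50.5 and 59.8 CPM in *WT*, 71.4, 71.8 and 67.7 in *KD1* and 102, 113 and 75.8 in *KD2*. Every *KD2* culture lay above every *KD1* culture and these above every *WT* culture, although *KD2* culture 3 was far below the other two. The log2 fold changes of *Orc4* were 0.30 in *KD1* (SE 0.118, adjusted p = 0.041) and 0.77 in *KD2* (SE 0.118, adjusted p = 5.2e-05). The call in *KD1* was lost without *WT* replicate 2 or any 1 of the 3 *KD1* cultures, with values of 0.24 to 0.34.

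*Orc3* was the one member lower in *KD1* and higher in *KD2*, with 76.3, 76.5 and 78.5 CPM in *WT*, 63.7, 65.2 and 65.9 in *KD1* and 123, 129 and 91.6 in *KD2*. No line overlapped another, and *KD2* culture 3 was again lower than the other two. The gene changed on the log2 scale by -0.25 in *KD1* (SE 0.0993, adjusted p = 0.046) and 0.57 in *KD2* (SE 0.0983, adjusted p = 0.00015), and the call in *KD1* was lost in 9 of 16 alternatives, among them leaving out any 1 of the *WT* or *KD1* cultures (-0.26 to -0.21). *Orc2* fell in both lines, by 0.29 in *KD1* and 0.56 in *KD2* on the log2 scale, and 29.8% of its exon bases are shared with *Nif3l1*. Its call in *KD1* was lost in 5 of 16 alternatives, among them leaving out *WT* or *KD1* replicate 1 or 3 (-0.29 to -0.25). *Orc5* and *Orc6* fell in *KD2*, by 0.53 (adjusted p = 0.00012) and by 0.46 (adjusted p = 1.1e-05), and did not pass the test in *KD1*. The subunits of the complex thus moved apart from one another within each line, over a range of -0.29 to 1.22 in *KD1* and -0.56 to 0.77 in *KD2*.

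Licensing factors also split. *Cdc6* (ENSMUSG00000017499, chromosome 11, 98907801 to 98923940, plus strand), the ATPase that loads MCM2-7 together with ORC, had 35.4, 44.4 and 41.4 CPM in *WT*, 85.8, 88.2 and 87.8 in *KD1* and 59.8, 59.2 and 60.4 in *KD2*. The lines did not overlap, *KD1* was highest and *KD2* lay between it and *WT*. Log2 fold changes were 1.11 in *KD1* (SE 0.0734, adjusted p = 1.5e-08) and 0.56 in *KD2* (SE 0.0739, adjusted p = 1.3e-05), which is 2.16-fold in *KD1* and 1.48-fold in *KD2*. *Cdt1* (ENSMUSG00000006585, chromosome 8, 122568015 to 122573554, plus strand), the partner that brings MCM2-7 to origins, had 149, 151 and 154 CPM in *WT*, 133, 131 and 128 in *KD1* and 92.0, 87.8 and 116 in *KD2*. It moved the other way, with every *KD1* culture below *WT* and every *KD2* culture below *KD1*. Its log2 fold changes were -0.21 in *KD1* (SE 0.0858, adjusted p = 0.048) and -0.62 in *KD2* (SE 0.0866, adjusted p = 2.4e-05). Chromosome 8, where *Cdt1* lies, had a median of -0.265 over 832 tested genes in *KD1* and -0.19 in *KD2*. *Cdt1* lay 0.052 from that median in *KD1* and -0.43 in *KD2*. The *KD1* call of *Cdt1* was lost in 10 of 16 alternatives, among them leaving out any 1 of the *WT* or *KD1* cultures or *KD2* replicate 1 (-0.22 to -0.18), and without *KD2* replicate 3 the *KD2* value was -0.73.

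*Gmnn* (ENSMUSG00000006715, chromosome 13, 24751845 to 24761923, minus strand) encodes geminin, which binds Cdt1 after origins have fired and blocks a second round of licensing. It had 40.9, 46.4 and 49.0 CPM in *WT*, 56.5, 59.1 and 54.5 in *KD1* and 20.8, 21.7 and 24.8 in *KD2*. The 3 lines did not overlap, with *KD1* above *WT* and *KD2* below it. It changed on the log2 scale by 0.32 in *KD1* (SE 0.0795, adjusted p = 0.0035) and -1.02 in *KD2* (SE 0.0840, adjusted p = 1.3e-07), and between the lines it differed by -1.34 ± 0.0830 (adjusted p = 4.9e-09), the largest difference of any member between *KD2* and *KD1*. Chromosome 13, where *Gmnn* lies, was itself lower in *KD2*, with a median of -0.66 over its 590 tested genes, so that *Gmnn* lay -0.36 from its chromosome.

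**Figure D2:**
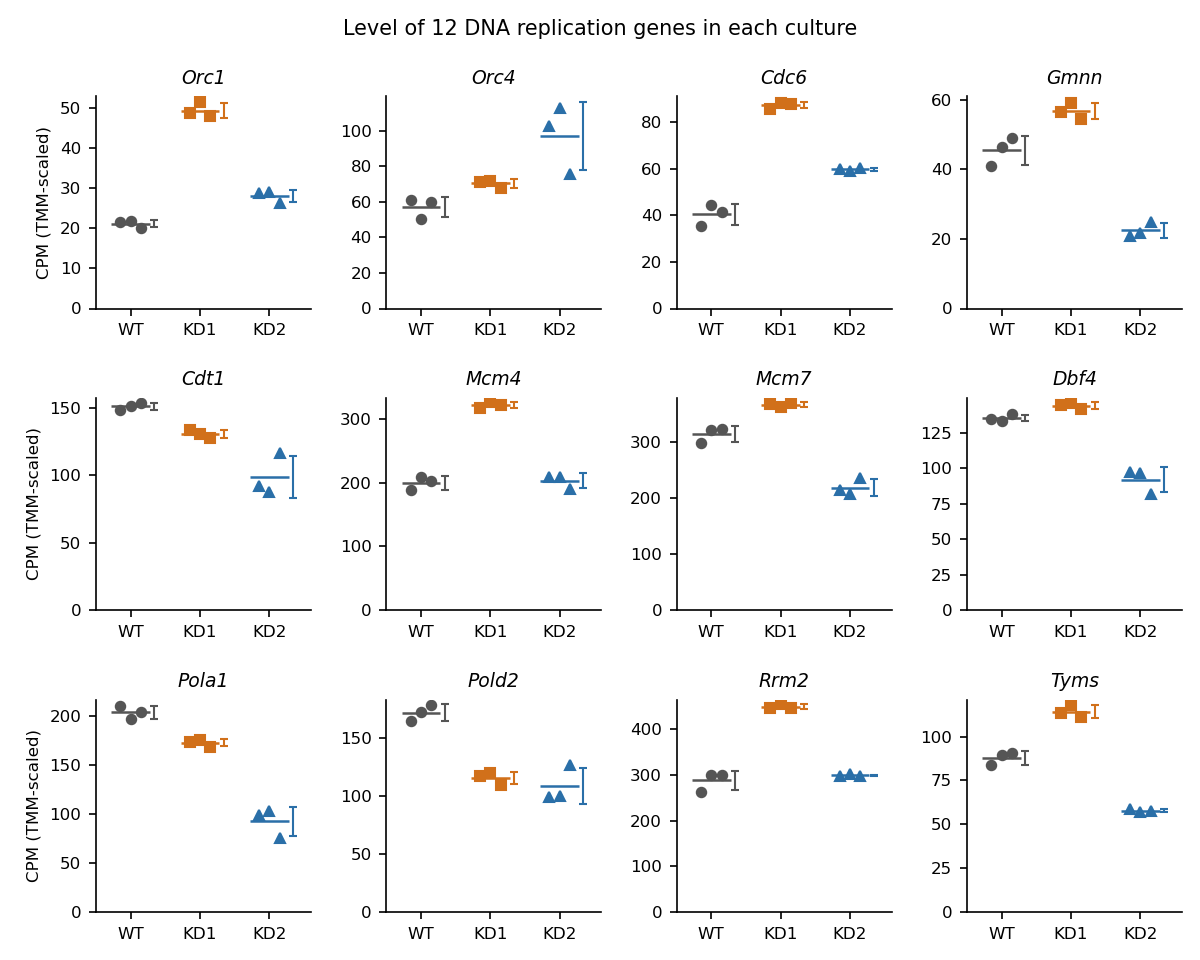
Level in CPM (TMM-scaled, axes start at 0) of 12 replication genes in each of the 9 cultures, with the mean of each line as a horizontal bar and its SD (n = 3) as a bracket. *Orc1* and *Cdc6* are highest in *KD1* and between *KD1* and *WT* in *KD2*, whereas *Gmnn*, *Mcm7* and *Tyms* are above *WT* in *KD1* and below it in *KD2*.

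The MCM2-7 helicase is a ring of 6 related subunits that are needed in equal numbers. In *KD1*, 5 of the 6 rose and *Mcm5* fell, and in *KD2*, 2 rose, 2 fell and 2 did not pass the test. The *KD1* shares are 83.3% and 16.7%, beside 26.9% and 30% of all tested genes. Both *KD2* shares are 33.3%, near the 34% and 33.3% of all tested genes. *Mcm4* (ENSMUSG00000022673, chromosome 16, 15623897 to 15637400, minus strand) had 188, 209 and 202 CPM in *WT*, 316, 325 and 322 in *KD1* and 209, 209 and 189 in *KD2*. All *KD1* cultures stood above the others, and *KD2* overlapped *WT*. Against *WT* the log2 fold changes were 0.69 in *KD1* (SE 0.0606, adjusted p = 3.3e-07) and 0.022 in *KD2* (SE 0.0606, adjusted p = 0.76). *Mcm7* (ENSMUSG00000029730, chromosome 5, 138164583 to 138172422, minus strand) had 298, 322 and 324 CPM in *WT*, 368, 362 and 369.9 in *KD1* and 214, 206 and 236 in *KD2*. All 3 *KD1* cultures were above *WT* and all 3 *KD2* cultures below it. Its log2 fold changes were 0.22 in *KD1* (SE 0.0609, adjusted p = 0.0065) and -0.52 in *KD2* (SE 0.0613, adjusted p = 4.3e-06). *Ap4m1*, *Cops6* and 2 microRNA genes overlap 12.6% of the exon bases of *Mcm7*, and 18.1% of its sequence windows of 50 bases are shared, mainly with *Gm5487*, so its level is less certain.

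*Mcm2* (ENSMUSG00000002870, chromosome 6, 88883474 to 88898780, minus strand) had 232, 253 and 254 CPM in *WT*, 328, 335 and 334 in *KD1* and 305, 295 and 345 in *KD2*. Both lines lay above *WT* in every culture and overlapped each other. This gave log2 fold changes of 0.43 in *KD1* (SE 0.0654, adjusted p = 6.4e-05) and 0.35 in *KD2* (SE 0.0654, adjusted p = 0.00027). *Mcm3* and *Mcm6* rose in *KD1* by 0.24 and 0.18 on the log2 scale (adjusted p = 0.005 and 0.0089), and *Mcm6* also rose in *KD2*, by 0.13 (adjusted p = 0.04), a call lost in 9 of 16 alternatives. *Mcm5* fell in both lines, with log2 fold changes of -0.27 (adjusted p = 0.002) for *KD1* and -0.50 (adjusted p = 6.1e-06) for *KD2*. Chromosome 8, which carries *Mcm5*, had a median of -0.265 over 832 tested genes in *KD1* and -0.19 in *KD2*. *Mcm5* lay -0.0001 from that median in *KD1* and -0.31 in *KD2*.

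Per kilobase of exon, the make-up of the ring's mRNA differed between the lines. *Mcm5* gave 25.3% ± 0.628 (SD, n = 3) of the summed CPM per kb of the 6 genes in *WT*, 18.1% ± 0.135 in *KD1* and 19.8% ± 0.815 in *KD2*. *Mcm4* gave 14.8% ± 0.279, 20.5% ± 0.111 and 16.7% ± 1.57, and *Mcm7* gave 18.9% ± 0.121, 18.96% ± 0.367 and 14.6% ± 0.447. *Mcm2* gave 9.42% ± 0.106, 10.9% ± 0.0578 and 13.4% ± 0.579. These shares were compared by their spread over cultures with no test, and they use the union of all annotated exons, which makes genes with long alternative exons such as *Mcm2* look lower.

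**Figure D3:**
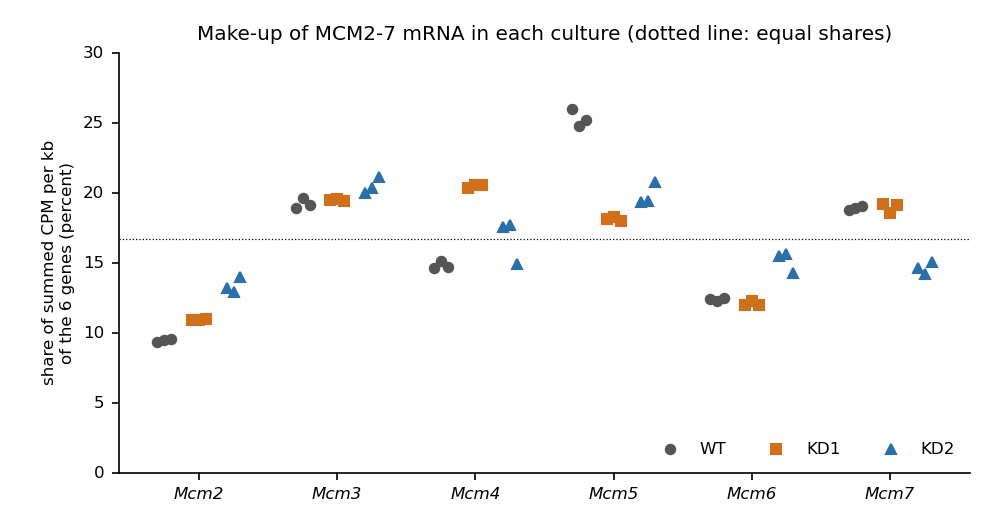
Share of each MCM2-7 subunit in the summed CPM per kb of exon of the 6 genes, in percent, with 1 point per culture (circles *WT*, squares *KD1*, triangles *KD2*) and a dotted line at equal shares. *Mcm5* is the largest share in *WT* at 24.8 to 26.0% and lies between 18.0 and 20.7% in the *KD* cultures.

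*Mcm10* (ENSMUSG00000026669, chromosome 2, 4989714 to 5012791, minus strand), which helps to turn the loaded helicase on, rose in both lines. It had 60.3, 62.2 and 66.1 CPM in *WT*, 87.8, 87.2 and 86.2 in *KD1* and 85.1, 86.8 and 85.8 in *KD2*. Every *KD* culture lay above every *WT* culture, and the lines overlapped each other. The fitted log2 fold changes were 0.47 in *KD1* (SE 0.0557, adjusted p = 6.4e-06) and 0.45 in *KD2* (SE 0.0558, adjusted p = 7.4e-06), with a difference of -0.02 ± 0.0549 (adjusted p = 0.77) between the lines. *Mcm8*, a helicase of recombination rather than of origins, did not pass the test in any comparison.

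Of the 7 helicase activators, 2 rose and none fell in *KD1*, and 5 fell and none rose in *KD2*. The 2 are 28.6%, near the 26.9% of all tested genes that were higher in *KD1*, where 30% were lower. The 5 are 71.4%, beside 33.3% of all tested genes lower and 34% higher in *KD2*. *Cdc45* (ENSMUSG00000000028, chromosome 16, 18780447 to 18811987, minus strand), which forms the active helicase with MCM2-7 and GINS, had 55.4, 62.5 and 66.2 CPM in *WT*, 82.0, 86.9 and 84.2 in *KD1* and 50.5, 49.3 and 59.6 in *KD2*. *KD1* was above *WT* in every culture, and *KD2* overlapped *WT*. On the log2 scale the changes were 0.46 in *KD1* (SE 0.0810, adjusted p = 0.00025) and -0.21 in *KD2* (SE 0.0823, adjusted p = 0.035). Its call in *KD2* did not hold in 7 of 16 alternatives, among them leaving out *WT* replicate 2 or 3 or *KD2* replicate 1 or 2 (-0.18 to -0.13). *Dbf4* (ENSMUSG00000002297, chromosome 5, 8396973 to 8422716, minus strand), the activator of the Cdc7 kinase, had 135, 134 and 138 CPM in *WT*, 145, 146 and 142 in *KD1* and 97.3, 96.8 and 81.8 in *KD2*. The *KD2* cultures were far below the rest, with culture 3 lowest. Log2 fold changes were 0.092 in *KD1* (SE 0.0667, adjusted p = 0.26) and -0.56 in *KD2* (SE 0.0674, adjusted p = 5.9e-06).

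Its partner *Cdc7* fell likewise in *KD2*, by 0.50 on the log2 scale (adjusted p = 9.3e-06), and did not pass the test in *KD1*. The GINS genes did not move as 1 unit. *Gins4* rose in *KD1* (0.35, adjusted p = 0.00069), *Gins1* and *Gins3* fell in *KD2* (-0.29 and -0.22, adjusted p = 0.0054 and 0.024), and *Gins2*, which shares 67.3% of its exon bases with *Gse1*, passed no test. The call of *Gins3* did not hold in 7 of 16 alternatives, among them leaving out *WT* replicate 2 or 3 or *KD2* replicate 1 or 2 (-0.21 to -0.14), and that of *Gins1* not in 2, among them leaving out *WT* replicate 3 (-0.21).

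Among the primase and polymerase genes, 4 of 9 rose and 2 fell in *KD1*, and 2 rose and 5 fell in *KD2*. These are 44.4% and 22.2% in *KD1*, beside 26.9% and 30% of all tested genes. In *KD2* they are 22.2% and 55.6%, beside 34% and 33.3%. *Pola1* (ENSMUSG00000006678, the X chromosome, 93304767 to 93632155, minus strand), the catalytic subunit of the polymerase that starts each new strand, had 210.1, 197 and 204 CPM in *WT*, 173, 176 and 169 in *KD1* and 98.8, 103 and 75.8 in *KD2*. The lines did not overlap, and *KD2* was lowest with its culture 3 below the other two. Against *WT* the log2 fold changes were -0.24 in *KD1* (SE 0.0885, adjusted p = 0.033) and -1.14 in *KD2* (SE 0.0903, adjusted p = 9.1e-08). The *KD1* call was lost in 9 of 16 alternatives, among them leaving out any 1 of the *WT* or *KD1* cultures (-0.25 to -0.21). The X chromosome, which carries *Pola1*, had a median of -0.63 over 449 genes in *KD2*, and *Pola1* lay -0.51 from it. *Pola2*, its regulatory partner on chromosome 19, rose in *KD1* by 0.36 (adjusted p = 0.00019). The primase subunits that work with both went apart in *KD2*, where *Prim1* fell by 0.49 and *Prim2* rose by 0.21 (adjusted p = 4.3e-06 and 0.005).

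*Pold2* (ENSMUSG00000020471, chromosome 11, 5872180 to 5878292, minus strand), the second subunit of the lagging-strand polymerase, was the member with the lowest log2 fold change in *KD1*. It had 165, 173 and 179 CPM in *WT*, 117, 119.8 and 110.0 in *KD1* and 99.6, 100.2 and 127 in *KD2*. All *KD* cultures lay below *WT* and the lines overlapped. This gave log2 fold changes of -0.57 in *KD1* (SE 0.0844, adjusted p = 5e-05) and -0.66 in *KD2* (SE 0.0847, adjusted p = 9.8e-06), and without *KD2* replicate 3, its highest *KD2* culture, the difference of *KD2* from *KD1* passed the test at -0.21. *Pold1*, the catalytic subunit of the same polymerase, rose in *KD1* (0.53, adjusted p = 0.00019), and *Pold3* fell in *KD2* (-0.46, adjusted p = 6.9e-06). Of the leading-strand polymerase, *Pole* rose in *KD1* and fell in *KD2* (0.28 and -0.17), and *Pole2* rose in both (0.53 and 0.21, adjusted p = 4.4e-05 and 0.028). In *KD2* the call of *Pole* did not hold in 4 of 16 alternatives, among them leaving out *WT* replicate 2 (-0.11), and that of *Pole2* not in 5, among them leaving out *WT* replicate 1 or *KD2* replicate 1 or 2 (0.13 to 0.20).

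The sliding clamp and its loader gave 2 higher and 2 lower genes of 6 in *KD1*, and no higher and 4 lower in *KD2*. The *KD1* counts are 33.3% each, near the 26.9% and 30% of all tested genes. The 4 in *KD2* are 66.7%, where 33.3% of all tested genes were lower and 34% higher. *Pcna* (ENSMUSG00000027342, chromosome 2, 132249162 to 132253314, minus strand), the clamp itself and a common marker of proliferating cells, had 335, 312 and 332 CPM in *WT*, 296, 313 and 299.7 in *KD1* and 267, 261 and 281 in *KD2*. *KD1* overlapped *WT*, and *KD2* lay below both. The fitted log2 fold changes were -0.11 in *KD1* (SE 0.0555, adjusted p = 0.12) and -0.28 in *KD2* (SE 0.0556, adjusted p = 0.00058). Pseudogenes, mainly *Pcna-ps2*, share 19.1% of the sequence windows of *Pcna*. *Rfc3* (ENSMUSG00000033970, chromosome 5, 151642756 to 151651242, minus strand), a small subunit of the clamp loader, had 97.2, 109.8 and 108 CPM in *WT*, 153, 156 and 153 in *KD1* and 95.6, 96.7 and 104 in *KD2*. The *KD1* cultures stood above all others, and *KD2* overlapped *WT*. It changed on the log2 scale by 0.55 in *KD1* (SE 0.0621, adjusted p = 3.8e-06) and -0.087 in *KD2* (SE 0.0625, adjusted p = 0.23).

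*Rfc5* (ENSMUSG00000029363, chromosome 5, 117378103 to 117389047, minus strand), another small subunit, had 121, 130.0 and 132 CPM in *WT*, 110.0, 113 and 107 in *KD1* and 86.5, 88.0 and 90.1 in *KD2*. It fell in both lines, and no line overlapped another. On the log2 scale the changes were -0.21 in *KD1* (SE 0.0557, adjusted p = 0.0049) and -0.53 in *KD2* (SE 0.0561, adjusted p = 1.5e-06). *Rfc2* rose in *KD1* (0.33, adjusted p = 0.00049), *Rfc4* fell in both (-0.19 and -0.26), and *Rfc1*, the large subunit, fell in *KD2* (-0.50, adjusted p = 2.7e-06). The *KD1* call of *Rfc4* was lost in 8 of 16 alternatives, among them leaving out *WT* or *KD1* replicate 1 or 3 (-0.19 to -0.15). Genes on the other strand overlap 15.1% of the exon bases of *Rfc2* (*Lat2*), 12.7% of *Rfc4* (*Eif4a2*) and 10.7% of *Rfc5* (*Wsb2*).

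Of the 5 genes of flap removal, ligation and single-strand binding, 3 rose and 1 fell in *KD1*, and 1 rose and 3 fell in *KD2*. These are 60% and 20% in *KD1*, beside 26.9% and 30% of all tested genes. In *KD2* they are 20% and 60%, beside 34% and 33.3%. *Fen1* and *Lig1* were above *WT* in *KD1* and below it in *KD2*, as were 5.86% of all tested genes. *Fen1* (ENSMUSG00000024742, chromosome 19, 10199132 to 10204169, minus strand), the nuclease that trims primer flaps, had 17.3, 20.1 and 20.2 CPM in *WT*, 22.3, 25.3 and 24.1 in *KD1* and 14.2, 14.3 and 16.5 in *KD2*. Every *KD1* culture exceeded every *WT* culture, and every *KD2* culture was lower than *WT*. Log2 fold changes were 0.31 in *KD1* (SE 0.0880, adjusted p = 0.0074) and -0.36 in *KD2* (SE 0.0914, adjusted p = 0.0031). *Gm10143* and *Tmem258* cover 84.2% of the exon bases of *Fen1* on the other strand, and the library kit does not mark strand, so their reads cannot be told apart. *Lig1*, which seals the fragments, rose in *KD1* (0.30) and fell in *KD2* (-0.18, adjusted p = 0.0014 and 0.027), the latter a call lost in 7 of 16 alternatives. Replication protein A, which coats single strands, had *Rpa1* higher (0.27 and 0.15) and *Rpa3* lower (-0.18 and -0.25) in both lines, and *Rpa2* passed neither test against *WT*. The call of *Rpa3* in *KD1* was lost in 7 of 16 alternatives, among them leaving out *WT* replicate 2 or 3 or *KD1* replicate 1 or 3 (-0.19 to -0.13), and that of *Rpa1* in *KD2* in 4, among them leaving out *WT* or *KD2* replicate 1 (0.11 to 0.15).

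Nucleotide supply held 2 higher genes and no lower gene of 5 in *KD1*, and no higher and 2 lower in *KD2*. The 2 genes are 40% of the group in each line. Shares over all tested genes were 26.9% higher and 30% lower in *KD1*, and 34% and 33.3% in *KD2*. *Rrm2* (ENSMUSG00000020649, chromosome 12, 24708241 to 24714146, plus strand), the subunit of ribonucleotide reductase whose level follows S phase, had 264, 301 and 301 CPM in *WT*, 447, 456 and 446 in *KD1* and 298, 301 and 299 in *KD2*. The 3 *KD1* cultures were far above the rest, and *KD2* overlapped *WT*. Against *WT* the log2 fold changes were 0.64 in *KD1* (SE 0.0591, adjusted p = 5.1e-07) and 0.054 in *KD2* (SE 0.0590, adjusted p = 0.44). The large subunit, *Rrm1*, did not pass the test in *KD1* and fell by 0.39 in *KD2* (adjusted p = 4.2e-05). *Tyms* (ENSMUSG00000025747, chromosome 5, 30058202 to 30073617, minus strand), which makes thymidylate, had 83.5, 89.4 and 90.6 CPM in *WT*, 113, 118 and 111 in *KD1* and 58.8, 57.0 and 57.8 in *KD2*. No line overlapped another, with *KD1* highest and *KD2* lowest. Its log2 fold changes were 0.38 in *KD1* (SE 0.0564, adjusted p = 5.6e-05) and -0.60 in *KD2* (SE 0.0575, adjusted p = 5.7e-07), and the difference between the lines was -0.98 ± 0.0572 (adjusted p = 2.6e-09). *Tk1* and *Dut* did not pass the test against *WT* in either line.

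Both subunits of chromatin assembly factor 1, which places histones behind the fork, rose in *KD1*, where 26.9% of all tested genes were higher. In *KD2*, 1 rose and 1 fell, beside 34% and 33.3% of all tested genes. *Chaf1a* (ENSMUSG00000002835, chromosome 17, 56040439 to 56072289, plus strand) had 108, 114 and 115 CPM in *WT*, 148, 144 and 149.5 in *KD1* and 139.6, 138 and 158 in *KD2*. Both *KD* lines lay above *WT* in every culture. This gave log2 fold changes of 0.39 in *KD1* (SE 0.0625, adjusted p = 0.00012) and 0.37 in *KD2* (SE 0.0625, adjusted p = 0.00014), and *Ubxn6* on the other strand covers 52.5% of its exon bases. *Chaf1b* (ENSMUSG00000022945, chromosome 16, 93883901 to 93906115, plus strand) had 67.8, 78.2 and 78.2 CPM in *WT*, 95.7, 95.8 and 95.1 in *KD1* and 55.2, 56.2 and 54.01 in *KD2*. No line overlapped another, with *KD1* above *WT* and *KD2* below. The fitted log2 fold changes were 0.35 in *KD1* (SE 0.0633, adjusted p = 0.00028) and -0.44 in *KD2* (SE 0.0643, adjusted p = 3.7e-05).

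Of the 3 G1/S control genes, 2 rose and none fell in *KD1*, and none rose and 1 fell in *KD2*. The 2 are 66.7%, beside 26.9% of all tested genes higher in *KD1*, where 30% were lower. The 1 in *KD2* is 33.3%, the same as the 33.3% of all tested genes, where 34% were higher. Log2 fold changes of the group ran from -0.011 to 0.22 in *KD1* and from -0.26 to -0.04 in *KD2*. *Ccne1* (ENSMUSG00000002068, chromosome 7, 38097984 to 38107534, minus strand), cyclin E1, had 48.2, 53.8 and 56.9 CPM in *WT*, 61.6, 64.5 and 58.9 in *KD1* and 50.5, 52.3 and 51.9 in *KD2*. *KD1* lay above *WT* in every culture, and *KD2* overlapped *WT*. It changed on the log2 scale by 0.22 in *KD1* (SE 0.0677, adjusted p = 0.013) and -0.04 in *KD2* (SE 0.0682, adjusted p = 0.62), and the *KD1* call was lost without *WT* replicate 1 or *KD1* replicate 2 (0.16 to 0.19). *Ccne2* (ENSMUSG00000028212, chromosome 4, 11191351 to 11204779, plus strand), cyclin E2, had 49.6, 48.8 and 53.0 CPM in *WT*, 47.8, 53.2 and 49.1 in *KD1* and 45.1, 49.0 and 31.5 in *KD2*, with all lines overlapping. On the log2 scale the changes were -0.011 in *KD1* (SE 0.119, adjusted p = 0.95) and -0.26 in *KD2* (SE 0.120, adjusted p = 0.07), and without *KD2* replicate 2 the *KD2* value passed the test at -0.38. *Ints8* on the other strand overlaps 17.4% of the exon bases of *Ccne2*. *E2f1* (ENSMUSG00000027490, chromosome 2, 154559407 to 154569892, minus strand), an activating E2F that is also a target of E2Fs, had 48.1, 52.3 and 50.9 CPM in *WT*, 58.7, 57.8 and 57.7 in *KD1* and 44.4, 43.1 and 47.9 in *KD2*. All *KD1* cultures were above *WT* and all *KD2* cultures below it. Log2 fold changes were 0.20 in *KD1* (SE 0.0609, adjusted p = 0.011) and -0.16 in *KD2* (SE 0.0616, adjusted p = 0.031). The *KD2* call of *E2f1* was lost in 7 of 16 alternatives, among them leaving out *WT* replicate 2 or 3 or *KD2* replicate 1 or 2 (-0.15 to -0.11).

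Set directly against each other, the lines differed in most of these genes. *KD2* was lower than *KD1* in 38 of 54 and higher in 3 (*Orc3*, *Orc4* and *Prim2*), beside 33% and 34.8% of all genes, and the median log2 difference was -0.32 where that of all genes was 0.016. All 3 *KD2* cultures lay below all 3 *KD1* cultures for 40 members and above them for 3, as did 35% and 36.7% of all genes, and without *KD2* culture 3 these members numbered 46 and 4, beside 41.1% and 42.3%. After *Gmnn*, the largest differences were in *Tyms* (above), *Pola1* (-0.90 ± 0.0900 (adjusted p = 7.6e-07)), *Orc3* (0.82 ± 0.0985 (adjusted p = 4.8e-06)), *Orc1* (above) and *Chaf1b* (-0.79 ± 0.0638 (adjusted p = 8.1e-08)). *Gmnn* was the one member beyond 2-fold, beside 8.58% of all genes lower and 14.7% higher. Without *KD2* replicate 3, 42 members were lower and 4 higher, beside 35.3% and 36.7% of all tested genes. With scaling by library size alone, where the median of all genes was 0.14, 31 were lower, 4 were higher and the members' median was -0.19.

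Chromosomes differed in their median log2 fold change, in *KD1* from -0.265 on chromosome 8 to 0.15 on chromosome 11. In *KD2* these medians ran from -0.66 on chromosome 13 and -0.63 on X to 0.28 on chromosome 17. The members are spread over 14 autosomes and X, with 10 of them on chromosome 5, where the *KD2* median was -0.20 over 1040 genes. Of these 10, *Mcm7*, *Cdc7*, *Dbf4*, *Orc5*, *Rfc1*, *Rfc5* and *Tyms* lay -0.40 to -0.30 from that median, and *Pole*, *Rfc2* and *Rfc3* lay 0.028 to 0.11 above it. Taking from each member the median of its chromosome moved the members' median from 0.16 to 0.21 for *KD1*, from -0.17 to -0.19 for *KD2* and from -0.32 to -0.35 between the lines. The part of chromosome-wide shifts in single genes was not tested.

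**Figure D4:**
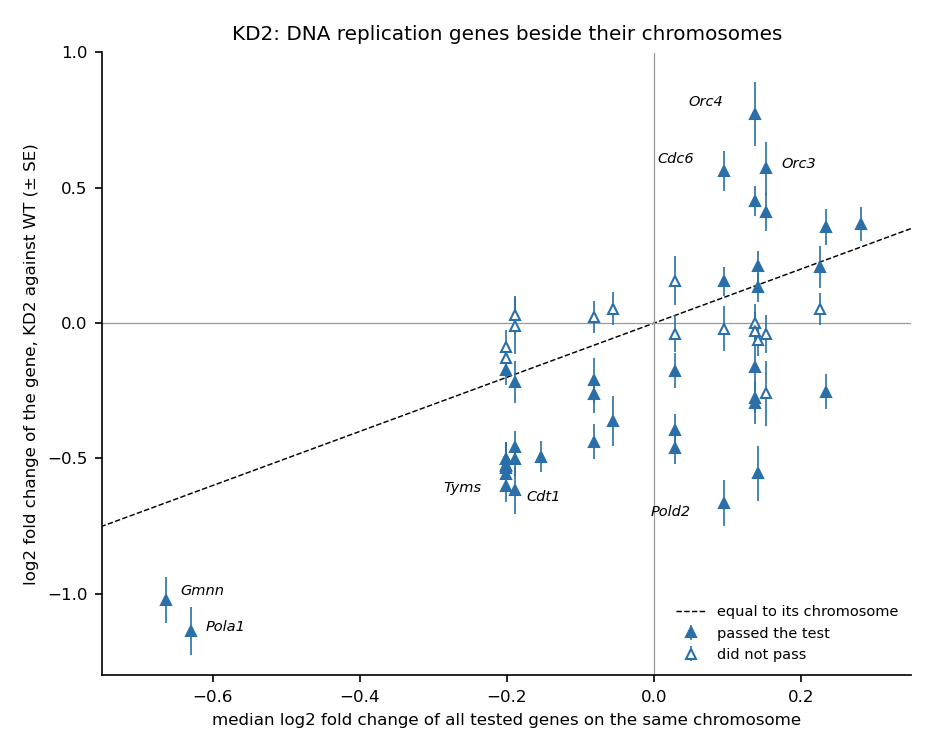
Log2 fold change of each of the 54 genes in *KD2* against *WT* (vertical axis, bars are standard errors, filled symbols passed the test) beside the median over every tested gene of its chromosome (horizontal axis). The dashed line marks genes that moved as far as their chromosome, and *Gmnn* and *Pola1*, at the lower left, lie on chromosome 13 and X.

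Compared per kilobase of exon, the members spanned a wide range of levels in *WT*, from 6.07 to 136 CPM per kb with a median of 18.7. *Pcna* was highest at 136 ± 5.40 (SD, n = 3), followed by *Rrm2* at 104 ± 7.75, *Mcm5* at 95.1 ± 1.94 and *Pold2* at 90.8 ± 3.73. *Pcna* stood apart from *Rrm2*, but for 42 of the 53 neighbouring pairs in this order the *WT* cultures overlapped. *Orc1* was lowest at 6.07 ± 0.251, after *Gins2* at 6.45 ± 1.08 and *Orc5* at 6.53 ± 0.0850. In *KD1*, *Orc1* reached 14.2 ± 0.531 and *Cdc6* went from 7.72 ± 0.876 to 16.7 ± 0.244, so these 2 genes, with the largest log2 fold changes in *KD1*, were among the lowest in *WT*. The *WT* level is the base of that fold change, so the 2 measures are not independent. *Gins2* and *Orc5*, also among the lowest in *WT*, did not pass the test in *KD1* (-0.11 and -0.13). *Rrm2*, at 162 ± 1.99 CPM per kb, was above *Pcna*, at 126 ± 3.63, in *KD1*.

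Other genes of the pathway were counted from lists of the same kind. Of 32 other replication factors, *KD1* had 10 higher and 10 lower, with a median log2 fold change of -0.058, and *KD2* had 4 and 21, with a median of -0.30. For *KD1* these are 31.2% each, near the 26.9% and 30% of all tested genes, and for *KD2* 12.5% and 65.6%, beside 34% and 33.3%. Without *KD2* replicate 3 the *KD2* counts were 5 and 21, beside 37.2% and 34% of all tested genes. Without *WT* replicate 1 they were 2 and 22, beside 32.4% and 31.7%. *Clspn*, claspin of the replication checkpoint, rose in both (0.54 and 0.19), and *Pole3*, a histone-fold subunit of the leading-strand polymerase, fell in both (-0.66 and -0.57). Of 20 G1/S regulators, *KD1* had 5 higher and 6 lower, and *KD2* had 3 and 12, with medians of 0.01 and -0.29. These are 25% and 30% in *KD1*, near the shares of all genes, and 15% and 60% in *KD2*. With *KD2* replicate 3 left out, the counts were 8 and 7 in *KD1*, beside 31.7% and 32.9% of all tested genes. In *KD2* they were 3 and 12, beside 37.2% and 34%. The E2F genes did not move as a family. *E2f2*, an activator, fell by 1.42 in *KD1* and by 0.33 in *KD2*, whereas *E2f3* and *E2f4* fell more in *KD2*, by 1.17 and 1.32. *E2f5* rose in both lines (0.22 and 0.48) and *E2f6* in *KD2* (0.57), and *E2f7* and *E2f8* rose in *KD1* (0.14 and 0.31) and fell in *KD2* (-0.25 and -0.24).

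Genes of mitosis were counted beside them. Of 20 G2/M genes, *KD1* had 8 higher and 7 lower, *KD2* had 7 and 4, and their medians were 0.059 and 0.076. Those counts are 40% and 35% in *KD1*, beside 26.9% and 30% of all tested genes. In *KD2* they are 35% and 20%, beside 34% and 33.3%, so the higher share is near that of all genes. *KD2* had 10 and 4 without its replicate 3, beside 37.2% and 34% of all genes. Without *WT* replicate 1 it had 6 and 6, beside 32.4% and 31.7%. *Mki67*, the Ki-67 proliferation marker, was at 0.036 in *KD1* and 0.043 in *KD2* on the log2 scale (adjusted p of 0.73 and 0.66), and *Ccnb1* rose in *KD1* (0.24) and fell in *KD2* (-0.60) while *Ccnb2*, the other B-type cyclin, fell in *KD1* (-0.17) and rose in *KD2* (0.45). The difference between the replication and the mitosis genes was not tested.

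**Figure D5:**
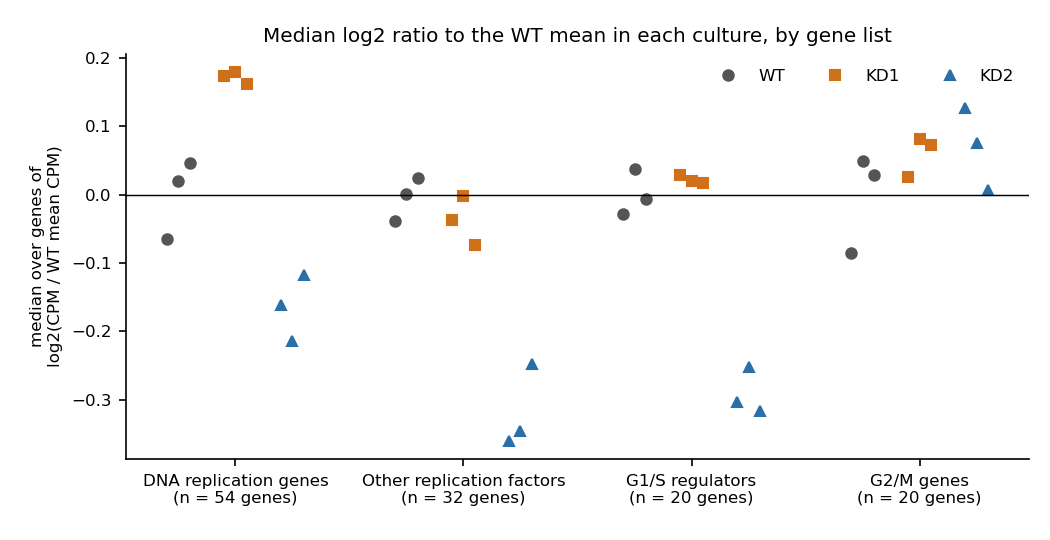
Median over the genes of each list of log2(CPM divided by the *WT* mean CPM), with 1 point per culture (circles *WT*, squares *KD1*, triangles *KD2*). For the 54 DNA replication genes, the *KD1* cultures lie at 0.16 to 0.18 and the *KD2* cultures at -0.21 to -0.12, and for the 20 G2/M genes the *KD* cultures lie at 0.0072 to 0.13.

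Markers of other cell types were few. *Adgre1* had no count in any culture, and *Ptprc*, *Adipoq* and *Plin1* were at or under the floor of 3 counts in all lines. The 5 leukocyte markers summed to 3.08 to 5.94 CPM in *WT*, 7.14 to 8.57 in *KD1* and 3.64 to 4.67 in *KD2*, nearly all of it *Cd68*. The 4 endothelial markers summed to 2.05 to 2.49, 4.87 to 5.51 and 1.43 to 2.10 CPM, and in *KD2* this sum was *Pecam1* at 0.919 ± 0.0255 CPM (SD, n = 3), *Cdh5* at 0.678 ± 0.292 and *Tek* at 0.216 ± 0.102, whereas in *WT* and *KD1* it was mostly *Pecam1*, at 2.16 ± 0.245 and 4.91 ± 0.288. The 3 adipocyte markers summed to at most 0.708 CPM. The 3 smooth muscle markers summed to 0.512 to 0.635, 0.282 to 0.332 and 4.97 to 5.95 CPM. The fibroblast markers *Pdgfra*, *Pdgfrb*, *Dcn* and *Lum* summed to 80.5 to 89.0 CPM in *KD2* and to 7.38 to 9.60 CPM in *WT*. In *KD2* most of that sum was *Pdgfrb*, at 66.8 ± 5.02 CPM (SD, n = 3) against 0.823 ± 0.236 in *WT*, and *Pdgfra* had 16.4 ± 0.183 and 7.96 ± 1.011 CPM, while *Lum* was at or under the floor and *Dcn* at 0.114 ± 0.122 CPM in *KD2*. Of the 6 epithelial markers, *Krt5* had 1088 ± 139 CPM in *KD2* and 2117 ± 139 in *WT*, *Krt14* 819 ± 119.9 and 1527 ± 90.7, *Epcam* 428 ± 52.9 and 551 ± 15.5, and *Cdh1* 428 ± 9.17 and 692 ± 33.6. *Krt8* was higher in *KD2*, at 268 ± 29.7 against 158 ± 21.5 CPM, and *Krt18* had 136 ± 9.73 against 125 ± 13.5. These levels moved with the lower replication genes of *KD2*, and their part in them was not tested.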

How the data were processed

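Poly-A-selected RNA of 9 cultures was sequenced in paired reads with a kit that does not mark strand. The authors used fastp for trimming, HISAT2 for mapping to GRCm38 and featureCounts (Subread) for counting over the exons of each gene. The deposited values are raw counts for 55228 genes. Groups were taken from the labels, and 0 columns were left without a culture. From these counts, all 9 cultures were fitted together with edgeR 4.0.16 in R 4.3.3 (TMM factors, filterByExpr, quasi-likelihood test, Benjamini-Hochberg adjustment over 15253 genes, adjusted p under 0.05), and each line was compared with *WT* and with the other. The standard error is the log2 fold change divided by the square root of the F statistic. The script was tested on simulated data. The authors tested their counts with DESeq2, which is an alternative here (1.42.0). Other alternatives were median-of-ratios size factors, library size alone, no filter, at least 10 counts in every culture, the 6 cultures compared, the replicate number as a block, and each culture left out.

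Positions, exon lengths and overlaps are from GENCODE M21, matched by gene name. The members, gene lists and marker lists were chosen with earlier results of these data known. Genes with values were those past 2-fold, the largest in each role in each line, and *Pcna*, *Mcm2*, *Cdc6*, *Cdt1*, *Gmnn*, *Rrm2*, *Ccne1*, *Ccne2*, *E2f1* and *Vangl2*.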

Additional observations from a re-analysis of the deposited data

Results flagged for a closer look

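*Gmnn*, the inhibitor of Cdt1, was the 1 member for which the difference between the lines passed the test and exceeded 2-fold. It had 54.5 to 59.1 CPM in the *KD1* cultures and 20.8 to 24.8 CPM in the *KD2* cultures, and its log2 fold change in *KD2* against *KD1* was -1.34 (SE 0.0830, adjusted p = 4.9e-09, edgeR's quasi-likelihood test). Across all alternatives this value ran from -1.41 to -1.22.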

How the results depend on the processing

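The counts of higher and lower members kept within 1.5 times their value, and the medians within the spread of the cultures, under all alternatives except those named here. With median-of-ratios size factors 5 members were lower in *KD1*, with DESeq2 4, and with at least 10 counts in every culture 3. Leaving out 1 culture at a time gave 3 to 11. For *KD2* against *WT*, library size alone gave a median of -0.064 and 1 member lower beyond 2-fold, at least 10 counts gave -0.10 and 1, no filter gave 7 higher members, and leaving out 1 culture gave 1 to 2 lower beyond 2-fold. Between the lines, library size alone gave a median of -0.19, no filter gave 2 members lower beyond 2-fold, and leaving out 1 culture gave 1 to 2. Why these counts moved was not tested.

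Values near 0 changed sign in a few genes, all outside the threshold before and after. With library size alone, the difference between *KD2* and *KD1* was 0.047 for *Mcm2*, 0.106 for *Mcm10*, 0.036 for *Pold2* and 0.107 for *Chaf1a*, and the *KD2* change against *WT* was 0.023 for *Rfc3* and 0.070 for *Ccne1*. With at least 10 counts in every culture these were 0.016 for *Mcm10*, 0.016 for *Chaf1a* and 0.031 for *Ccne1*, and the *KD1* change of *Ccne2* was 0.024. For *Ccne2* in *KD1* it was 0.0120 with median-of-ratios size factors, 0.0118 with DESeq2 and 0.030 with the 6 cultures compared, and for *Mcm4* in *KD2* it was -0.0087 with no filter. Leaving out 1 culture gave -0.024 to 0.095 for *Mcm4*, -0.011 to 0.11 for *Rrm2*, -0.11 to 0.038 for *Ccne1* and -0.038 to 0.13 for *Vangl2* in *KD2*, -0.053 to 0.048 for *Ccne2* in *KD1*, and -0.075 to 0.015 for *Chaf1a* between the lines.

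The labels number the cultures of each line. Deviations of same-numbered cultures correlated at -0.065 to 0.079 over 9 pairs, so the numbers were not taken to pair the cultures. With the replicate number as a block, 27 members were higher and 9 lower in *KD1*, 10 and 29 in *KD2*, and 3 and 39 between the lines. Each member had at least 335 counts in every culture, and counting error was not separated from the rest of the spread.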
